A study of Mus musculus with 49 samples.

Results

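The genes described here are 9 receptor genes of natural killer (NK) cells, of which 8 are killer cell lectin-like receptors and 1, Ncr1, is an immunoglobulin-type receptor. They were chosen by symbol, as Klrc1, Klrd1, Klrk1, Klre1, Klra7, Klrb1f, Klrb1c, Klrg1 and Ncr1, and each matched 1 of the 39179 genes in the count table. The choice was made with earlier results of these data known. RNA was measured in 49 CT26 tumours, a colon carcinoma line of BALB/c origin injected into Balb/c mice, by sequencing the 3′ ends of transcripts. Treatment began on day 7 after injection and was planned for 7 days. In the combination group (16 tumours) mice received anti-PD-1, an antibody against an inhibitory receptor of T cells, at 200 µg per dose for 2 doses, together with celecoxib, a COX-2 inhibitor that lowers prostaglandin synthesis, at 30 mg/kg daily. In the anti-PD-1 group (17 tumours) mice received the antibody, in the celecoxib group (7 tumours) celecoxib, and in the vehicle group (9 tumours) a mixture of DMSO, PEG400 and water. Each tumour is also marked R or NR for response, without a stated criterion. Of the combination tumours 12 were R and 4 NR, of the anti-PD-1 tumours 4 were R and 13 NR, and all celecoxib and vehicle tumours were NR. All tumours came from 1 cell line grown in 1 strain, whole tumours were extracted, and the labels place the collection both on day 7 of treatment and on day 4.

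NK cells kill tumour cells when signals from activating receptors outweigh those from inhibitory receptors. Klrc1 (NKG2A) pairs with Klrd1 (CD94) to form an inhibitory receptor for the non-classical class I molecule Qa-1, and Klra7 (Ly49G) is an inhibitory receptor for classical class I molecules. Klrk1 (NKG2D) and Ncr1 (NKp46) are activating receptors, the first for stress-induced ligands such as the Rae-1 and H60 proteins. Several of these receptors are not limited to NK cells: activated CD8 T cells also express Klrc1, Klrd1, Klrk1 and Klrg1, whereas Ncr1 is largely restricted to NK cells and other innate lymphoid cells.

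Library size ran from 4251251 to 13671294 counts (median 7670623). All 9 genes passed the filter on low counts, and 7 of them had at least 1 count in every library. Klra7 had 0 counts in 4 libraries (combination replicate 15, anti-PD-1 replicates 8 and 14 and vehicle replicate 8), where a count of 0 allows up to 0.435, 0.266, 0.372 and 0.375 CPM (counts scaled to a library of fixed size) in that order. Klrg1 had 0 counts in combination replicate 6, which allows up to 0.446 CPM. These limits are 3 counts of the library and cover counting error only. The labels do not state that each tumour came from a different animal, so each p-value reflects the spread among the samples at hand. In whole tumours, fewer cells of a type and less RNA per cell cannot be told apart.

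On the GRCm38 build, 8 of the 9 genes lie on chromosome 6 and Ncr1 lies on chromosome 7 (4337724 to 4345164, plus strand). The genes Klrb1c, Klrb1f, Klre1, Klrd1, Klrk1, Klrc1 and Klra7 lie, in that order, within 1454838 bases (128778485 to 130233322), a stretch of the NK gene complex with 77 annotated genes. Klrg1 (122270596 to 122282882, minus strand) lies 6495603 bases outside it. Between Klrb1c and Klra7 the annotation has 21 genes with a Klr symbol, of which 13 passed the filter on low counts. Near-identical copies make some counts uncertain. Of the 50-base words in the last 500 bases of the Klrc1 transcript, 56.3% also occur in Klrc2, and 27.5% of those of Klra7 occur in Klra13-ps, while the other 7 genes shared none. The median count was 151 for Klrc1, 4 for Klrc2, 7 for Klra7 and 3 for Klra13-ps, and the counting of reads with several matches is not stated in the labels or notes. Gm44511 overlaps Klrb1c on its own strand, and Gm43992 and Gm44000 overlap Klrb1f on the opposite strand, and the count table used here has no row for them. The genome build derives from C57BL/6J, whose Ly49 genes (Klra) differ in number and sequence from those of BALB/c, and the effect on these counts was not tested.

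The 250 bases before the transcript start were in the RefSeq promoter table (GRCm38.p6) for 7 of the 9 genes, not including Klrd1 and Klrg1. For Klre1, Klra7 and Ncr1, which have 2 starts listed, only the first was used. The windows of Klre1, Klra7 and Klrb1c lie inside the annotated bounds of these genes. Sequences are shown for the 5 genes whose window holds the letters TGTGGT, the core bound by Runx factors, which act in T and NK cells. Each sequence reads 5′ to 3′ on the gene's strand, and capitals mark TGTGGT or its reverse complement ACCACA.
Klrc1 promoter, chr6:129678974-129679223, minus strand: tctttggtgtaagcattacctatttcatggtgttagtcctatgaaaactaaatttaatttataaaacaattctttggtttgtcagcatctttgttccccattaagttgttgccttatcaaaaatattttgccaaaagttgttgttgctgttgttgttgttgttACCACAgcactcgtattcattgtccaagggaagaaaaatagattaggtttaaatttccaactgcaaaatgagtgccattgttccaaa
Klrk1 promoter, chr6:129623865-129624114, minus strand: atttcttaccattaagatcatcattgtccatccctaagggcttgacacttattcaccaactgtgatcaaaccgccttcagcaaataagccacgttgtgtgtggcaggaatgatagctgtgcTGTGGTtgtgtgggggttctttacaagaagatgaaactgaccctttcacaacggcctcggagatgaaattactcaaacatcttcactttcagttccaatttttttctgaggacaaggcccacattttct
Klre1 promoter, chr6:129577963-129578212, plus strand: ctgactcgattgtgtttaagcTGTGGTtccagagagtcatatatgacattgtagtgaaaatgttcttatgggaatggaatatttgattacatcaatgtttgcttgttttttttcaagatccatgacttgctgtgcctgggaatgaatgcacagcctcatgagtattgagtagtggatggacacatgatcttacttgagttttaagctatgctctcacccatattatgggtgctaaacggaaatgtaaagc
Klrb1c promoter, chr6:128788642-128788891, minus strand: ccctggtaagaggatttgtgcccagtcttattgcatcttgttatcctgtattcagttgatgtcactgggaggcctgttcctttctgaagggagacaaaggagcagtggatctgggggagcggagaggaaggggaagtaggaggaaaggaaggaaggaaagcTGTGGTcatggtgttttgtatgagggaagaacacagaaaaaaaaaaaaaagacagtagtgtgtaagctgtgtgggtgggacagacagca
Ncr1 promoter, chr7:4337465-4337714, plus strand: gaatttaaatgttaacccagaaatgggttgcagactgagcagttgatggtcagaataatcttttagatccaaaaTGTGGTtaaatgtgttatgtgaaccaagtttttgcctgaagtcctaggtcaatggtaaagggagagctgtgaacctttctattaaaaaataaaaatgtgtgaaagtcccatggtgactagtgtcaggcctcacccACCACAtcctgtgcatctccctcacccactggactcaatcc
The letters TGTGGT, searched on both strands, occurred once each in the windows of Klrc1, Klrk1, Klre1 and Klrb1c, at 2 places in that of Ncr1 and in neither Klra7 nor Klrb1f, so in 5 of 7 windows, against 14% of 32851 mouse promoters of the same length. The T-box letters GGTGTGA were in 0 of the 7 (3.33% of all promoters), the STAT letters TTCNNNGAA in 1, that of Klra7 (7.02%), and the AP-1 letters TGANTCA in 0 (6.75%). No window held matches of more than 1 of the 4 motifs, so no match overlapped another motif.

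Across the 4 treatments, the mean log2 level was highest in the combination group and lowest in the anti-PD-1 group for 7 of the 9 genes, the exceptions being Klrg1 and Ncr1, where celecoxib tumours had the highest mean. For Ncr1 the order depended on the measure, as its median CPM was highest in combination tumours and lowest in anti-PD-1 tumours. For each of the 9 genes, all 3 gaps between neighbouring treatment means were smaller than the larger SD of the pair, and so were all 5 gaps when treatments were divided by response label. The spread within a group was wide, and Klrc1 ran from 1.16 to 279 CPM within the combination group.

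**Figure D1:**
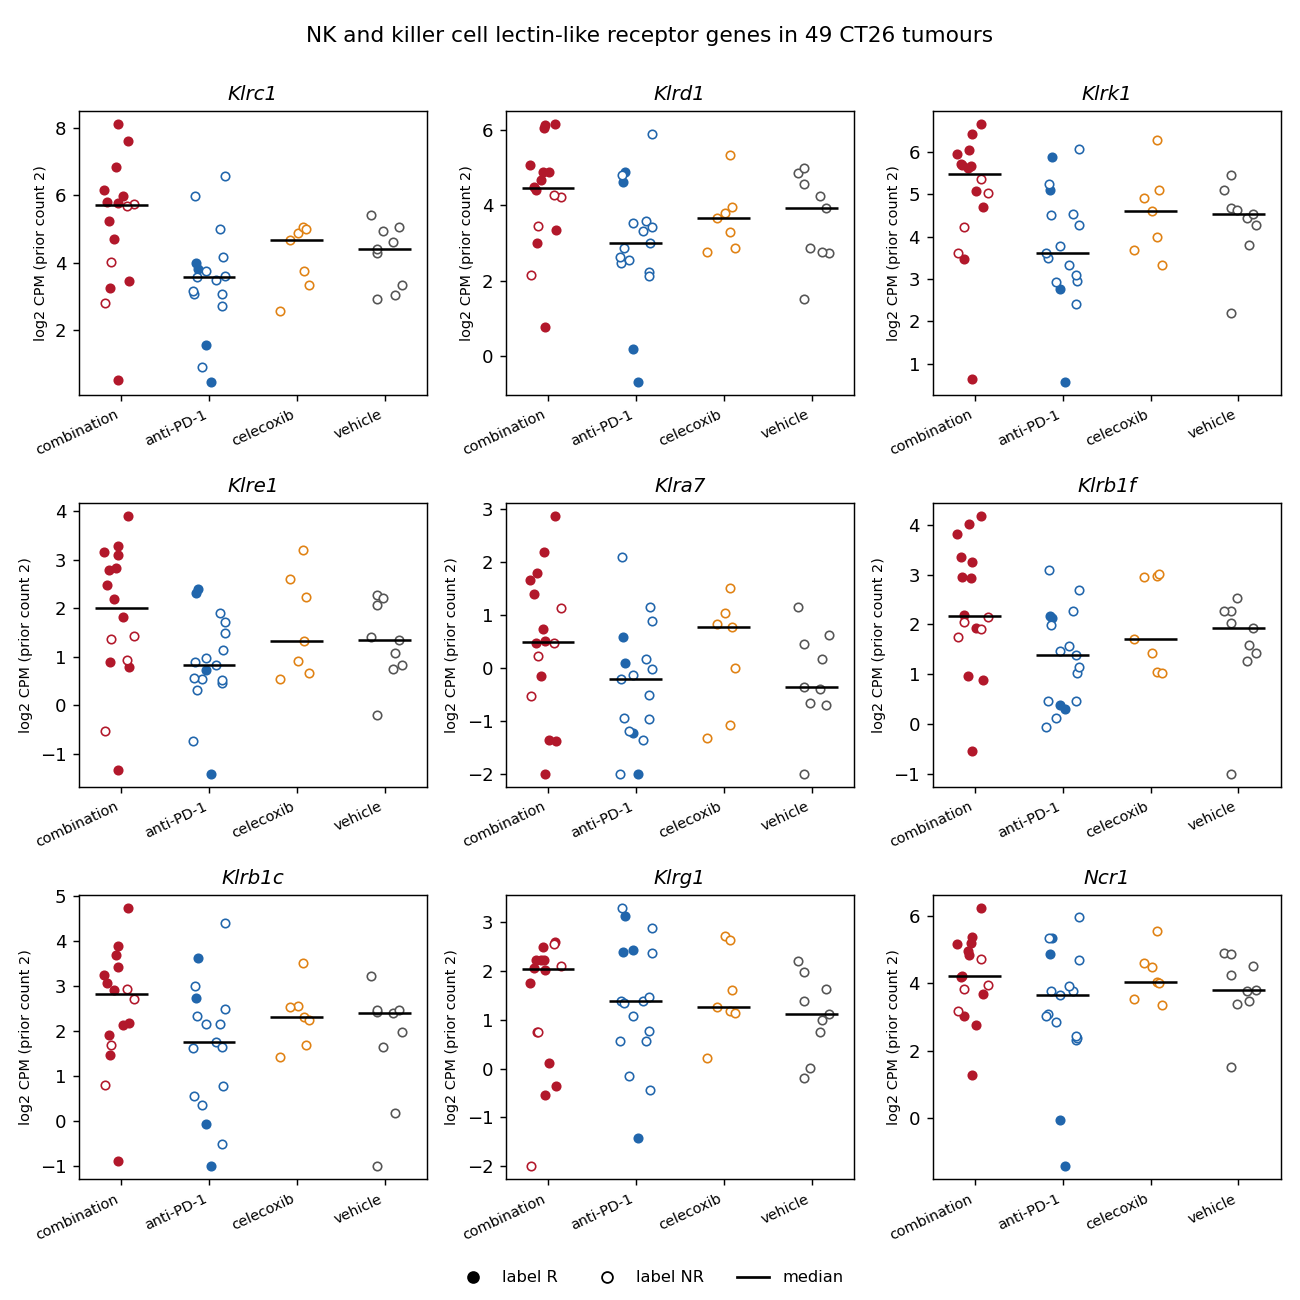
Each point is 1 of 49 tumours, with the treatment on the x axis and the log2 CPM of the gene (prior count 2) on the y axis, 1 panel per gene; filled points are labelled R, open points NR, and the bar is the group median. For Klrc1, Klrd1, Klrk1, Klre1, Klrb1f, Klrb1c and Ncr1 the combination median is the highest and the anti-PD-1 median the lowest, while the ranges of all groups overlap.

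The main comparison asks whether the receptor genes differed when celecoxib was given with anti-PD-1. In edgeR's quasi-likelihood fit of all 49 libraries, with Benjamini-Hochberg adjustment over 13726 genes and a limit of 0.05, 0 of the 9 genes passed in combination against anti-PD-1 tumours, where 0.503% of all genes passed in either direction. At an unadjusted p under 0.05, 6 of the 9 did, all higher with the combination, against 17.2% of all genes in either direction. The log2 difference was above 0 for 8 of the 9 genes, against 49.6% of all genes, with a median of 1.09 against 0.00 over all genes. The 9 genes are correlated with each other (median Pearson's r 0.762 over 36 pairs), so these counts are not 9 separate results. DESeq2 called 3 of the 9 here, Klrc1, Klrb1f and Klre1, and limma-voom 0, and neither called any of the 9 in the other comparisons of treatments or response labels.

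Klrc1, the inhibitory chain that binds Qa-1, had the largest difference of the 9. It measured 1.16, 52.1 and 279 CPM (lowest, median and highest) in combination tumours, against 1.12, 11.7 and 94.3 CPM in anti-PD-1 tumours. Combination replicates 1, 16 and 11, at 279, 194 and 114 CPM, lay above every anti-PD-1 tumour, the other 13 combination tumours lay within the anti-PD-1 range, and combination replicate 15 and anti-PD-1 replicate 14 were lowest. The log2 difference was 1.80 (SE 0.49, 3.47-fold; edgeR adjusted p = 0.0696, n = 16 and 17). This gene sits close to the limit: DESeq2 gave 1.80 with an adjusted p of 0.0218, a fit with the skeletal muscle level as covariate gave 1.85 with 0.0421, and adjusted p ran from 0.0218 to 0.12 over 6 alternatives. Its partner chain Klrd1 (CD94) measured 1.45, 21.5 and 70.9 CPM in combination tumours, against 0.372, 7.70 and 59.2 CPM in anti-PD-1 tumours. The groups overlapped over most of their range, and the log2 difference was 1.04 (SE 0.44, edgeR adjusted p = 0.21).

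Klrk1 (NKG2D), an activating receptor that signals through the adaptors Hcst and Tyrobp, measured 1.31, 44.7 and 101 CPM in combination tumours, against 1.24, 12.04 and 66.5 CPM in anti-PD-1 tumours. Combination replicates 16 and 1 were highest, followed by anti-PD-1 replicate 2, and the low ends of both groups were alike. The log2 difference was 1.09 (SE 0.39, edgeR adjusted p = 0.14).

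Klre1, which pairs with Klri1 or Klri2 into an inhibitory or an activating receptor, measured 0.145, 3.81 and 14.8 CPM in combination tumours, against 0.124, 1.54 and 5.03 CPM in anti-PD-1 tumours. The groups overlapped, and the log2 difference was 1.30 (SE 0.39, 2.46-fold; edgeR adjusted p = 0.0862). Klra7, a class I receptor, was counted at low depth and measured 0, 1.15 and 7.02 CPM in combination tumours, against 0, 0.612 and 4.03 CPM in anti-PD-1 tumours. Both groups held tumours with no count, and the log2 difference was 1.16 (SE 0.50, edgeR adjusted p = 0.218).

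The NKR-P1 family genes Klrb1f and Klrb1c encode stimulatory receptors, the second being the NK1.1 antigen of C57BL/6 mice. Klrb1f measured 0.435, 4.25 and 17.8 CPM in combination tumours, against 0.708, 2.37 and 8.22 CPM in anti-PD-1 tumours. The lowest value of the 2 groups was a combination tumour, replicate 15, and the log2 difference was 1.25 (SE 0.36, 2.37-fold; edgeR adjusted p = 0.0789). Klrb1c measured 0.290, 6.82 and 26.4 CPM in combination tumours, against 0.248, 3.14 and 21.1 CPM in anti-PD-1 tumours. Its log2 difference was smaller, 0.69 (SE 0.43, edgeR adjusted p = 0.405), and the ranges nearly coincided.

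Klrg1, an inhibitory receptor for cadherins found on effector T and NK cells, measured 0, 3.86 and 5.76 CPM in combination tumours, against 0.124, 2.35 and 9.51 CPM in anti-PD-1 tumours. The highest values were in anti-PD-1 tumours, and the log2 difference was -0.10 (SE 0.40, edgeR adjusted p = 0.921). Ncr1, the activating receptor NKp46, measured 2.18, 18.2 and 74.3 CPM in combination tumours, against 0.124, 12.3 and 61.6 CPM in anti-PD-1 tumours. The groups overlapped over most of their range, and the log2 difference was 0.46 (SE 0.41, edgeR adjusted p = 0.581).

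The T cell genes differed by value in the same direction in this comparison. Of the 15 listed T cell genes (antigen receptor, CD3, CD4, CD8 and signalling genes) all 15 had a log2 difference above 0, with a median of 1.27, and 0 passed. Their mean per tumour, called the T cell level here, ran from -0.63 to 4.62 log2 CPM in combination tumours and from -1.44 to 3.80 in anti-PD-1 tumours. The skeletal muscle list also differed (12 of 12 above 0, median 1.495, 0 passed), and its part in the result was tested only by the covariate fit given for Klrc1. The fit is also sensitive to single tumours: between 0 and 3 of the 9 genes passed when each of the 33 libraries was left out in turn. Klrc1 passed without anti-PD-1 replicate 1 (adjusted p = 0.0429). Klrc1 and Klrb1f passed without anti-PD-1 replicate 2 (adjusted p = 0.0186 and 0.0483), without anti-PD-1 replicate 11 (0.0433 and 0.0496) and without combination replicate 3 (0.0405 and 0.0491). Without combination replicate 15, Klrc1, Klrb1f and Klre1 passed (adjusted p = 0.0207, 0.0263 and 0.029, all from edgeR). Other omissions weakened the result, with edgeR adjusted p up to 0.151 for Klrc1, 0.186 for Klrb1f and 0.197 for Klre1. The log2 difference of Klrc1 ran from 1.44 to 2.18 over the 33 omissions.

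**Figure D2:**
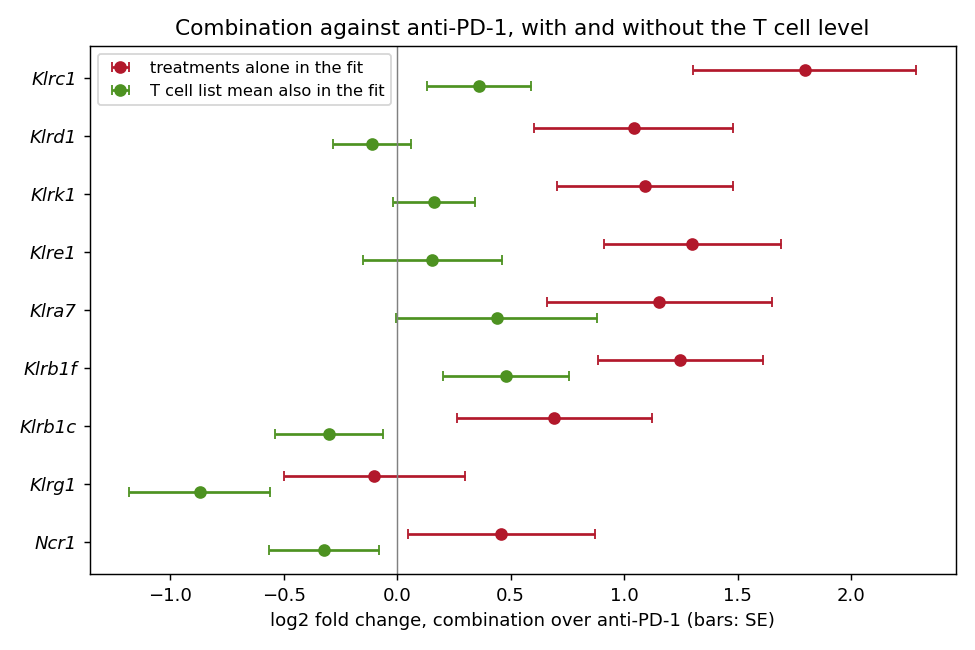
Log2 fold change of each gene in combination over anti-PD-1 tumours (x axis) with SE bars, from the fit of the treatments alone (red) and from the fit that also holds the T cell level (green). The red values run from -0.10 for Klrg1 to 1.80 for Klrc1; the green values run from -0.87 for Klrg1 to 0.48 for Klrb1f.

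The other treatments were compared in the same fit, and the comparisons share tumours with each other. Combination against vehicle tumours gave a log2 difference above 0 for 9 of 9 genes, against 50.9% of all genes (median 0.90, range 0.49 to 1.59). Of these, 0 passed (0.0729% of all genes did) and 2 had an unadjusted p under 0.05 (15.4% of all genes), Klrc1 (1.59, SE 0.61, edgeR adjusted p = 0.211) and Klrb1f (1.04, SE 0.45, edgeR adjusted p = 0.258). Klrc1 measured 1.16, 52.1 and 279 CPM in the combination group, 5.62, 25.3 and 33.1 CPM in the celecoxib group and 7.25, 20.9 and 42.3 CPM in the vehicle group. The highest combination tumours lay far above both other groups, and the lowest combination tumour, replicate 15, lay below both. Combination against celecoxib tumours gave a median of 0.51 with 8 of 9 above 0 (53.8% of all genes). Of the 9, 0 passed (0.0364% of all genes) and 1 had an unadjusted p under 0.05 (4.92% of all genes), Klrc1 (1.61, SE 0.68). In the T cell list, 15 of 15 genes were above 0 against vehicle (median 0.87) and against celecoxib (median 0.86), with 0 passing in each.

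With anti-PD-1 alone against vehicle, 4 of 9 genes were above 0, against 51.9% of all genes (median -0.20, range -0.37 to 0.60). None of the 9 passed (0.0874% of all genes did), and 0 had an unadjusted p under 0.05 (3.48% of all genes). Klrg1 had the largest difference here, 0.60 (SE 0.49). With celecoxib alone against vehicle, 7 of 9 were above 0, against 49.8% of all genes (median 0.36, range -0.03 to 0.73). None of the 9 passed (0% of all genes), and 0 had an unadjusted p under 0.05, as 314 of 13726 genes did (2.29%). Whether celecoxib acted differently with and without anti-PD-1 was tested as an interaction, in which 0 of the 9 passed (0% of all genes). Klrc1 had the largest interaction, 1.81 (SE 0.87, unadjusted p = 0.0416, edgeR adjusted p = 1), the only one of the 9 at an unadjusted p under 0.05 (3.01% of all genes). All 15 genes of the T cell list were also above 0 in this interaction (median 1.44), and 0 passed.

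Ncr1 and Klrg1, the genes with the highest mean in celecoxib tumours, were also set against vehicle. Ncr1 measured 10.03, 16 and 46.1 CPM in celecoxib tumours, against 2.63, 13.8 and 29.6 CPM in vehicle tumours, a log2 difference of 0.32 (SE 0.59, edgeR adjusted p = 1). Klrg1 measured 0.912, 2.16 and 6.34 CPM in celecoxib tumours, against 0.625, 1.93 and 4.36 CPM in vehicle tumours, a log2 difference of 0.54 (SE 0.58, edgeR adjusted p = 1). In both genes the lower part of the celecoxib range lay inside the vehicle range.

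Tumours labelled R and NR were compared within each antibody treatment, in a fit of 6 groups with 14247 genes. Under the combination 9 of 9 genes had a log2 difference above 0 in R against NR tumours (53.9% of all genes; median 0.90). Of the 9, 0 passed (0% of all genes) and 1, Klre1, had an unadjusted p under 0.05, as did 1298 of all genes (9.11%). Klre1 measured 0.145, 6.04 and 14.8 CPM in R tumours under the combination, against 2.35, 2.43, 0.446 and 1.66 CPM in the 4 NR tumours. The NR tumours all lay below the R median, and the R range covered the NR range, with a log2 difference of 1.76 (SE 0.67, edgeR adjusted p = 0.455). Klrc1 measured 1.16, 54.8 and 279 CPM in R tumours under the combination, against 15.8, 53.3, 6.70 and 50.9 CPM in NR tumours. Here NR replicates 5 and 12 lay close to the R median, and the log2 difference was 1.25 (SE 0.83, edgeR adjusted p = 0.635). The T cell list had 15 of 15 genes above 0 in this comparison (median 1.47) and the skeletal muscle list 12 of 12 (median 3.35), with 0 passing in each, and the part of muscle in the result was not tested beyond the covariate alternative.

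Under anti-PD-1 alone, 6 of 9 genes were above 0 in R against NR tumours (50.7% of all genes; median 0.09). Of the 9, 0 passed (0% of all genes) and 0 had an unadjusted p under 0.05, as did 923 of all genes (6.48%). The 4 R tumours were split. Klrd1 measured 0.884 and 0.372 CPM in R replicates 12 and 14 and 24.2 and 29.1 CPM in R replicates 15 and 17, against 4.08, 7.70 and 59.2 CPM in NR tumours. Ncr1 measured 0.707 and 0.124 CPM in R replicates 12 and 14 and 28.7 and 40.3 CPM in R replicates 15 and 17, against 4.74, 12.3 and 61.6 CPM in NR tumours. For both genes, R replicates 12 and 14 lay below every NR tumour of this treatment and replicates 15 and 17 lay above the NR median. Klrc1 followed a similar division. It measured 2.65, 1.12, 15.7 and 13.8 CPM in R replicates 12, 14, 15 and 17, against 1.59, 11.7 and 94.3 CPM in NR tumours, a log2 difference of -1.37 (SE 0.85, edgeR adjusted p = 0.837). For this gene too R replicates 15 and 17 lay above the NR median and replicate 14 below every NR tumour, while replicate 12 lay above 1 NR tumour, replicate 3. Klrg1 measured 5.13, 0.124, 4.98 and 8.51 CPM in the same R tumours, against 0.491, 2.27 and 9.51 CPM in NR tumours, so that 3 of the 4 lay above the NR median; the log2 difference was 0.69 (SE 0.63, edgeR adjusted p = 0.932).

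The R against NR difference was set against itself between the treatments as an interaction. Klrc1 had a value of 2.62 (SE 1.19, unadjusted p = 0.0324, edgeR adjusted p = 0.999), and it was the 1 gene of the 9 at an unadjusted p under 0.05 (2.31% of all genes), while 0 passed (0% of all genes). All 15 genes of the T cell list were also above 0 in this interaction (median 1.69), and 0 passed. Among R tumours, combination against anti-PD-1 gave 3.16 for Klrc1 (SE 0.95, unadjusted p = 0.0017, edgeR adjusted p = 0.658) and 1.54 for Klrb1f (SE 0.64, edgeR adjusted p = 0.658), with 0 of the 9 passing (0% of all genes) and these 2 at an unadjusted p under 0.05 (7.38% of all genes). Among NR tumours the median over the 9 genes was 0.04, 0 passed (0.0281% of all genes) and 0 had an unadjusted p under 0.05 (5.73% of all genes). In the T cell list, 15 of 15 genes were above 0 among R tumours (median 1.74) and 6 of 15 among NR tumours (median -0.16). None of the listed T cell genes passed in either. Averaged over both antibody treatments, R against NR gave 1.27 for Klre1 (SE 0.43, edgeR adjusted p = 0.168) and -0.06 for Klrc1 (SE 0.55), with 0 passing (0.0491% of all genes) and Klre1 alone at an unadjusted p under 0.05 (14% of all genes).

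Whether the receptor genes followed the T cell genes from tumour to tumour was tested in the same libraries. With the T cell level as a covariate beside treatment, 9 of 9 genes passed with a positive slope, where 36% of all genes passed in either direction and 18.6% with a positive slope. Klrc1 had the steepest slope of the 9, 1.19 log2 units per log2 unit of the T cell level (SE 0.08, edgeR adjusted p = 9.38e-18), followed by Klrd1 (1.08, SE 0.06), Klrb1c (1.01, SE 0.08), Klrk1 (0.96, SE 0.07) and Ncr1 (0.92, SE 0.09). Klre1 (0.84, SE 0.11), Klrg1 (0.79, SE 0.11), Klra7 (0.76, SE 0.15, edgeR adjusted p = 7.07e-05) and Klrb1f (0.70, SE 0.10) had shallower slopes. All 9 slopes passed under each alternative fit and without each of the 49 libraries in turn. The relation is not particular to these 9 genes: 17 of 19 tested other NK cell genes and 8 of 8 cytotoxic effector genes had a positive slope that passed, and so did 7 of 8 macrophage genes, 2 of 2 tested B cell genes and 3 of 4 tested mast cell and basophil genes.

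**Figure D3:**
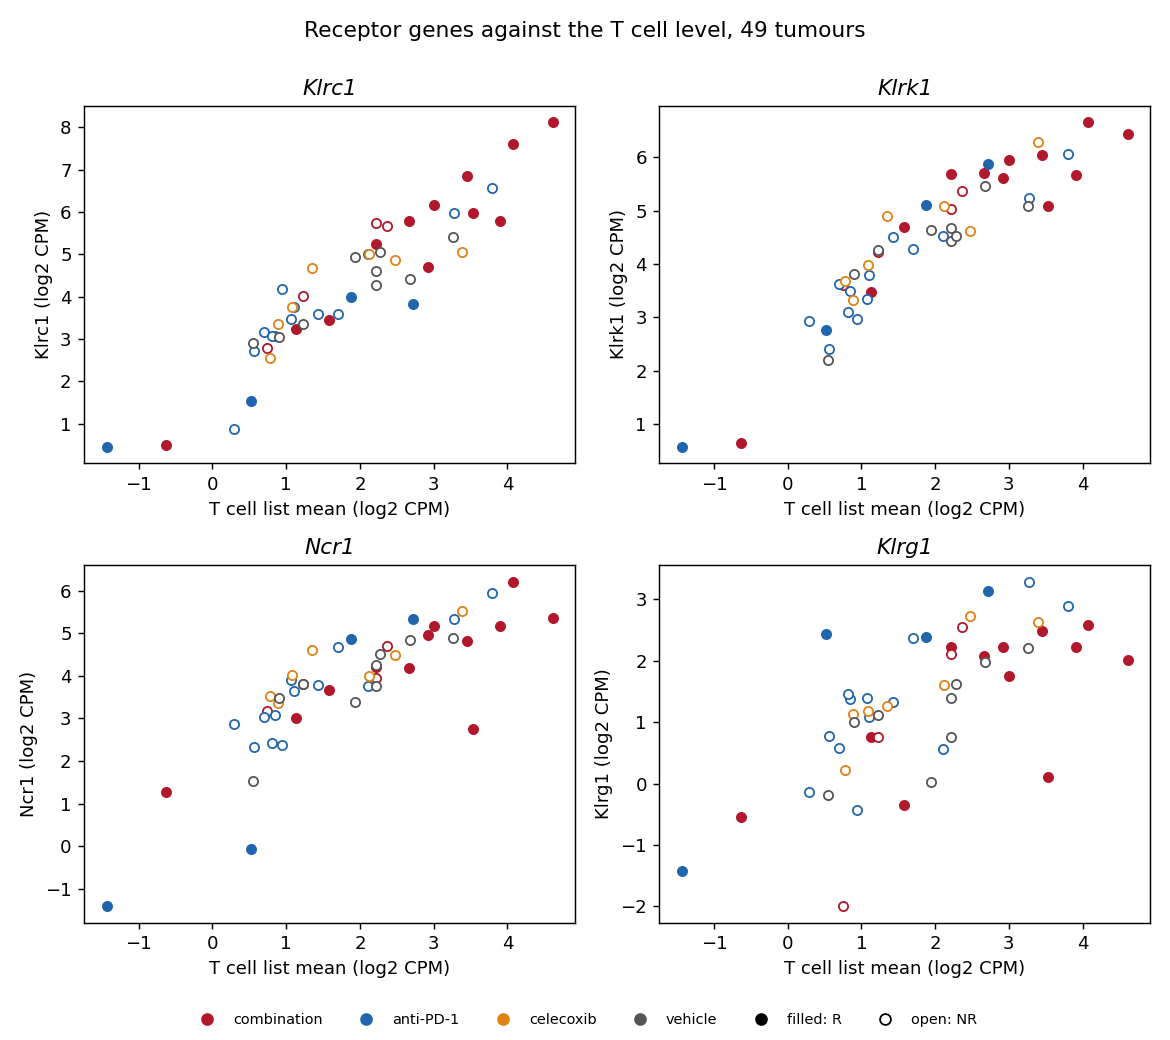
Log2 CPM of Klrc1, Klrk1, Ncr1 and Klrg1 (y axes) against the mean log2 CPM of 15 T cell genes (x axis), 1 point per tumour, coloured by treatment and filled where labelled R. Klrc1, Klrk1, Ncr1 and Klrg1 all rise with the T cell level, with scatter among tumours of like level. As an example of the scatter, Klrc1 is at 3.81 in anti-PD-1 replicate 17 and at 5.79 in combination replicate 9, where the T cell levels are 2.72 and 2.66. Combination replicate 7 lies between them, at 4.71 where its T cell level is 2.92. The fitted Klrc1 difference between these treatments at equal T cell level was 0.36 (SE 0.23). In the Ncr1 panel combination replicate 14 lies low, at 2.75 where its T cell level is 3.54. Anti-PD-1 replicate 12 also lies low there, at -0.06 where its T cell level is 0.52.

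Across the 49 tumours, Pearson's r with the T cell level was 0.940 for Klrd1, 0.926 for Klrc1, 0.925 for Klrk1, 0.874 for Klrb1c, 0.823 for Ncr1, 0.810 for Klre1, 0.765 for Klrb1f, 0.677 for Klrg1 and 0.658 for Klra7. Between pairs of the 9 genes r ran from 0.530 to 0.925 (36 pairs, median 0.762). These are descriptions over tumours that share treatment groups and whose libraries share the same scaling.

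At equal T cell level the difference between combination and anti-PD-1 tumours was smaller in size for 8 of the 9 genes, with a median of 0.16 against 1.09 without the covariate. Klrc1 differed by 0.36 (SE 0.23, edgeR adjusted p = 0.402), Klrd1 by -0.11 (SE 0.17), Klrk1 by 0.16 (SE 0.18), Klre1 by 0.15 (SE 0.31), Klra7 by 0.44 (SE 0.44), Klrb1f by 0.48 (SE 0.28), Klrb1c by -0.30 (SE 0.24) and Ncr1 by -0.32 (SE 0.24). Klrg1 was the exception, with a log2 difference of -0.87 (SE 0.31, unadjusted p = 0.00741, edgeR adjusted p = 0.149), the only one at an unadjusted p under 0.05 (17.9% of all genes), while 0 of the 9 passed (0.459% of all genes). In the same fit Trbc1, a T cell receptor constant gene of the T cell list itself, passed at -0.84 (SE 0.21, edgeR adjusted p = 0.0479). Between R and NR tumours over both antibody treatments at equal T cell level, Klrc1 differed by -0.70 (SE 0.24, unadjusted p = 0.00568, edgeR adjusted p = 0.135) and Klre1 by 0.64 (SE 0.32, edgeR adjusted p = 0.327), with 0 passing (0.14% of all genes) and Klrc1 alone at an unadjusted p under 0.05 (15.4% of all genes). Within anti-PD-1 tumours, Klrc1 differed by -0.90 (SE 0.37, edgeR adjusted p = 0.661) and Klrg1 by 0.89 (SE 0.44, edgeR adjusted p = 0.735) between R and NR at equal T cell level. These 2 had an unadjusted p under 0.05 (6.75% of all genes), and 0 passed (0.00702% of all genes). Within combination tumours the 9 values ran from -0.59 to 0.66 and 0 passed (0.00702% of all genes).

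The Ncr1 level, taken as an NK cell measure, was placed in the same fit as the T cell level, a fit added after the data were seen. The slope on the T cell level passed for 6 of the 8 genes other than Ncr1 (17.7% of all genes passed in either direction): Klrc1 (1.14, SE 0.13), Klrd1 (0.68, SE 0.07), Klrg1 (0.67, SE 0.19), Klre1 (0.59, SE 0.17), Klrk1 (0.58, SE 0.09) and Klrb1c (0.44, SE 0.12). It did not pass for Klrb1f (0.46, SE 0.17, edgeR adjusted p = 0.0533) or Klra7 (0.30, SE 0.32, edgeR adjusted p = 0.569). The slope on the Ncr1 level passed for Klrb1c (0.62, SE 0.11, edgeR adjusted p = 0.000141), Klrd1 (0.45, SE 0.07) and Klrk1 (0.41, SE 0.08), where 17.4% of all genes passed, besides Ncr1 itself, which defines the covariate. The slope on the Ncr1 level was 0.05 for Klrc1 (SE 0.12, edgeR adjusted p = 0.806) and 0.11 for Klrg1 (SE 0.15, edgeR adjusted p = 0.656). It also did not pass for Klra7 (0.50, SE 0.28, edgeR adjusted p = 0.219), Klre1 (0.27, SE 0.15, edgeR adjusted p = 0.205) or Klrb1f (0.25, SE 0.15, edgeR adjusted p = 0.246). In this fit Klrd1 had both slopes past the limit, and its partner Klrc1 the T cell slope alone. Differences in slope between these 2 genes, or between any others, were not tested. The levels overlap, as Ncr1 had a Pearson's r of 0.823 with the T cell level. The T cell level averages a list of genes, whereas the Ncr1 level rests on Ncr1 alone. A slope that did not pass is therefore not a lack of relation to Ncr1. Without the T cell level, Pearson's r with Ncr1 was 0.771 for Klrc1 and 0.917 for Klrd1. Which cells the RNA of each gene came from was not tested.

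**Figure D4:**
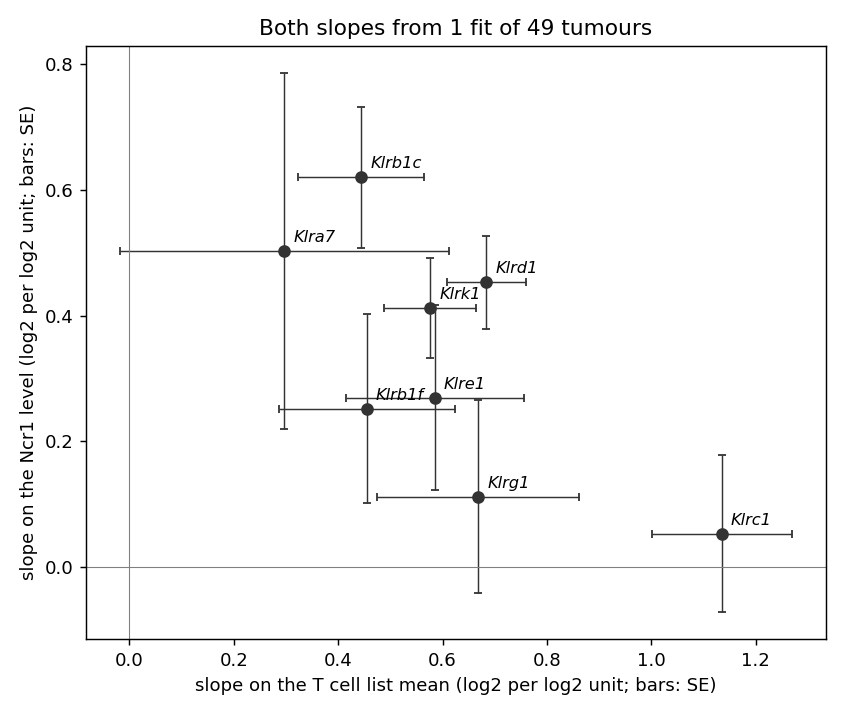
Slope on the T cell level (x axis) and slope on the Ncr1 level (y axis) of 8 receptor genes, in log2 units per log2 unit with SE bars, both from 1 fit of 49 tumours. Klrc1 lies at the far right with a slope of 1.14 on the T cell level and 0.05 on Ncr1, and Klrb1c at the top with 0.44 and 0.62.

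Relative to the T cell genes, the mean of the 9 receptor genes varied less from tumour to tumour than on its own. The mean log2 CPM of the 9 genes ran over 5.72 log2 units and that of the T cell list over 6.06, whereas their difference ran over 2.72 units (SD 0.45, against 1.18 and 1.25). By treatment the difference was 0.56 ± 0.58 in combination, 0.74 ± 0.27 in anti-PD-1, 0.99 ± 0.42 in celecoxib and 0.48 ± 0.39 in vehicle tumours (SD, n = 16, 17, 7 and 9). The celecoxib and vehicle means lay further apart than the SD of either, and every other pair of means lay closer than the larger SD of the pair; no test was made of this score. The spread was widest in the combination group, which held R replicate 14 with the lowest difference of all 49 tumours, -0.95, and R replicate 1 at -0.31. Combination replicate 14 had a T cell level of 3.54 log2 CPM, Klrc1 at 5.98 and Klrk1 at 5.08, but Ncr1 at 2.75. Celecoxib replicate 3 had the highest difference, 1.77, at a T cell level of 1.35.

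**Figure D5:**
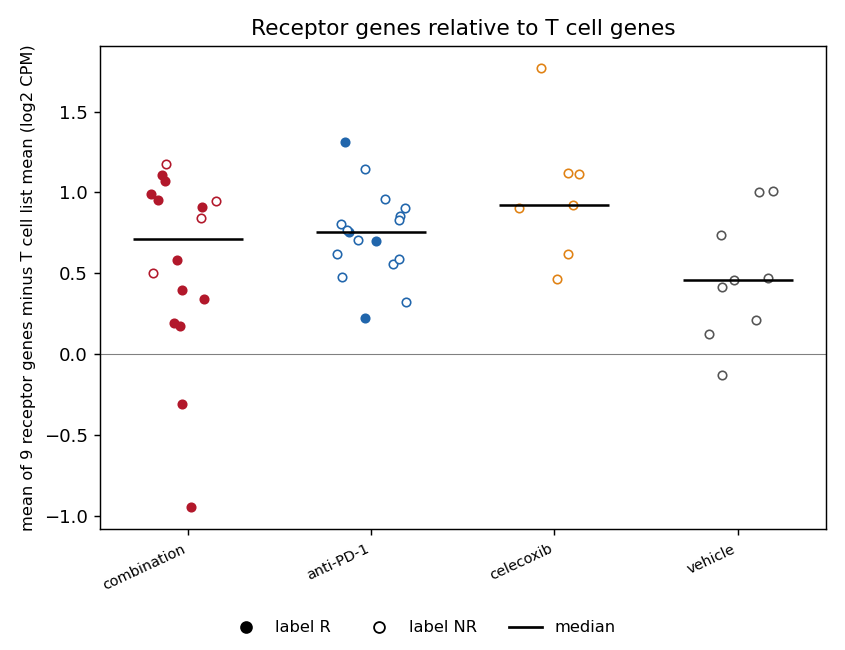
Mean log2 CPM of the 9 receptor genes minus that of the 15 T cell genes (y axis) by treatment (x axis), 1 point per tumour, filled where labelled R, with the group median as a bar. The medians are 0.71, 0.76, 0.92 and 0.46 in combination, anti-PD-1, celecoxib and vehicle tumours, and combination replicate 14 lies lowest at -0.95.

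The same few tumours held the extremes. Combination replicate 15 and anti-PD-1 replicate 14, both labelled R, were among the 5 lowest tumours for 9 of 9 genes, with T cell levels of -0.63 and -1.44. Vehicle replicate 8 was among the 5 lowest for 7 genes and anti-PD-1 replicate 12 (R) for 5. Combination replicate 16 (R) was among the 5 highest for 8 genes, combination replicate 1 (R) for 7 and anti-PD-1 replicate 2 (NR) for 6, and their T cell levels were 4.08, 4.62 and 3.80. Tumours labelled R were thus found at both ends.

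Of all other tested genes, those whose log2 CPM followed the mean of the 9 scaled receptor genes most closely over the 49 tumours were Klri2, an NK receptor chain that pairs with Klre1 (Pearson's r = 0.965), Itgal, the integrin chain of LFA-1 (0.963), Il2rb, the shared receptor chain for IL-2 and IL-15 (0.956), Ptprc, the pan-leukocyte antigen CD45 (0.956), and Nkg7, a granule protein of cytotoxic lymphocytes (0.949). Single genes had different nearest patterns. Ncr1 was closest to Gzma, a granzyme (0.962), and then Klri2 (0.939), whereas Klrc1 was closest to Ctsw, a cathepsin of cytotoxic cells (0.941), and Sh2d2a, a T cell adaptor (0.940). Klrd1 was closest to Ms4a4b and Nkg7 (0.954 each), Klrb1c to Klri2 (0.934), Klrk1 to Lair1, an inhibitory collagen receptor of leukocytes (0.954), and Klre1 to Satb1, a chromatin organiser of T cells (0.875). Klrb1f was closest to Fgd4 (0.891), Klra7 to Txk, a kinase of T and NK cells (0.764), and Klrg1 to Gzma (0.780).

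The partners of these receptors were read from lists of named genes. Of 15 listed ligand genes 11 were tested, and in combination against anti-PD-1 tumours 0 passed, 8 were above 0 and the median was 0.34, against 1.09 for the 9 receptor genes and 0.00 for all genes. B2m, the light chain of class I molecules, was at 0.45 (SE 0.14, edgeR adjusted p = 0.107). The class I gene H2-D1 was at 0.42 (SE 0.15, edgeR adjusted p = 0.142). Both differed less by value than the receptor genes other than Klrg1. On the T cell level, 7 of the 11 ligand genes had a positive slope that passed and 1 a negative one. B2m (0.23, SE 0.04) and the class I genes H2-D1 (0.30, SE 0.03) and H2-K1 (0.42, SE 0.06) had shallower slopes by value than any receptor gene. So did H2-T23, which encodes Qa-1, the ligand of Klrc1 with Klrd1 (0.32, SE 0.13, edgeR adjusted p = 0.0382). Cdh2, a cadherin, had the negative slope (-0.25, SE 0.05).

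Of the 14 adaptor and signalling genes, 0 passed in combination against anti-PD-1 tumours, 13 were above 0 and the median was 0.59, and 13 of 14 had a positive slope on the T cell level that passed. Hcst, the adaptor of Klrk1, had a slope of 0.88 (SE 0.05), and Tyrobp, an adaptor that macrophages also use, 0.78 (SE 0.06). Of the 8 cytotoxic effector genes 0 passed, 8 were above 0 and the median was 1.07, with Gzmb, a granzyme, at 1.13 (SE 0.45, edgeR adjusted p = 0.182) and Ctsw at 1.41 (SE 0.40, edgeR adjusted p = 0.0755). Of 27 listed other NK cell genes 19 were tested, 0 passed, 19 were above 0 and the median was 0.79. Among these Gzma was at 0.34 (SE 0.46, edgeR adjusted p = 0.738), while Ccl5, a chemokine of T and NK cells, was at 0.85 (SE 0.41, edgeR adjusted p = 0.28). Of 12 listed cytokine and cytokine receptor genes 11 were tested, 0 passed, 11 were above 0 with a median of 0.41, and Il15, the survival factor of NK cells, was at 0.29 (SE 0.18, edgeR adjusted p = 0.417).

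Genes of other cell types in the tumours gave the setting. In combination against anti-PD-1 tumours, 7 of 8 macrophage genes (median 0.55), 4 of 4 tested mast cell and basophil genes (median 0.64), 2 of 2 tested B cell genes (median 0.71) and 3 of 4 tested genes of gamma-delta T cells and innate lymphoid cells (median 0.40) were above 0, and none passed. All 4 tested epithelial and CT26 genes were below 0 (median -0.80, 0 passed), among them Krt18 (-0.61, SE 0.31) and Krt8 (-0.99, SE 0.49), keratins whose slope on the T cell level was negative and passed (-0.40, SE 0.09, and -0.53, SE 0.13). The part of these cell types in the receptor values was not tested.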

How the data were processed

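RNA of 49 tumours was sequenced with a stranded 3′ end kit (QuantSeq FWD), per the labels' protocols. The authors deposited raw counts per Ensembl gene for 39179 genes, and per the submitters' processing notes they used bcl2fastq, STAR, featureCounts and limma with mm10 and GRCm38; neither these notes nor the labels give versions, the strand setting or how reads with several matches were counted. The authors also deposited log2 values for 16559 genes, checked to equal log2 of the count plus 0.5 over 1 constant per library (largest spread 9.99e-09) and not used in tests. Symbols, for 37607 genes, and coordinates came from GENCODE M21 on GRCm38.

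CPM used TMM-scaled library sizes, and log2 CPM a prior count of 2. Tests used edgeR 4.0.16 in R 4.3.3 (filterByExpr, robust quasi-likelihood fits, Benjamini-Hochberg adjustment over all genes tested, limit 0.05), in 1 fit of 4 treatments (13726 genes) and 1 fit of 6 groups of treatment and response label (14247 genes). The T cell level, the mean of 15 T cell genes, entered as a covariate where stated. SE is the log2 fold change over the root of the F statistic. Depth was 4251251 to 13671294 counts per library, and the labels give no batch. The steps were tested on simulated data.

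The 9 genes and all lists were chosen with earlier results of these data known. Of each list, the counts, the median and up to 4 genes of the highest mean level are given, plus any gene past the limit in a printed comparison, and the 5 other genes closest by Pearson's r to the mean of the 9 scaled genes and the 3 closest to each gene; the text names a part of these. Alternatives were DESeq2 1.42.0, limma-voom (limma 3.58.1), RLE scaling, no filter, the compared groups alone, the muscle level as covariate, and CD3 genes as the T cell level. Leaving out each library in turn and the joint fit with Ncr1 were added after the data were seen.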

Additional observations from a re-analysis of the deposited data

Results flagged for a closer look

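Within groups of 4 to 10 tumours, 36 combinations of gene and group were screened for a tumour standing apart from the rest, and 3 were found; chance flags about 1 in 20. Klrg1 in anti-PD-1 tumours labelled R was lowest in replicate 14, at -1.42 log2 CPM, with the next of the 4 tumours at 2.39. In vehicle tumours replicate 8 was lowest for Klrb1f, at -1 with the next tumour at 1.27, and for Ncr1, at 1.52 with the next at 3.38. The T cell level was also low in these tumours, -1.44 in anti-PD-1 replicate 14 and 0.55 in vehicle replicate 8; its part in these values was not tested.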

How the results depend on the processing

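No paired analysis was possible because the replicate numbers were given in the order of the labels and pair no tumours across groups. The positive slopes of the 9 genes on the T cell level kept their call in each alternative and each fit without 1 library. In combination against anti-PD-1 tumours the number of the 9 genes that passed was 0 in the reported fit, 3 with DESeq2 (Klrc1, Klrb1f and Klre1), 1 with the muscle level as covariate (Klrc1), 0 in the other alternatives, and 0 to 3 without 1 library.

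All changes of sign were in genes that had not passed, and their cause was not tested. Over the alternatives, the R against NR interaction between treatments ran from -0.53 to 0.54 for Klrg1. The celecoxib interaction ran from -0.005 to 0.42 for Ncr1. Combination against anti-PD-1 among NR tumours ran from -0.07 to 0.43 for Klrb1c, -0.02 to 0.35 for Klrd1 and -0.11 to 0.36 for Ncr1. With limma-voom, celecoxib against vehicle gave 0.071 for Klrc1 and 0.14 for Klrd1; anti-PD-1 against vehicle gave -0.33 for Klra7, -0.10 for Klrb1c and -0.55 for Ncr1; combination against celecoxib gave -0.035 for Klre1, -0.008 for Klra7 and -0.13 for Ncr1. R against NR under anti-PD-1 gave -0.78 for Klrd1, -0.10 for Klrk1, 0.10 for Klrb1f, -0.26 for Klrb1c and -1.33 for Ncr1 with limma-voom, R against NR over both antibody treatments -0.14 for Klra7 and -0.54 for Ncr1, and R against NR under the combination at equal T cell level -0.10 for Klrb1f. With the muscle level as covariate, celecoxib against vehicle gave 0.30 for Klrc1 and 0.10 for Klrd1, and R against NR gave 0.003 for Klrb1f under anti-PD-1 and 0.11 for Klrc1 over both. With the CD3 genes as the T cell level, R against NR gave 0.11 for Klrd1 over both antibody treatments, and 0.078 for Klrd1 and 0.22 for Klra7 under the combination. At equal T cell level DESeq2 gave -0.006 for Klrk1 over both and -0.009 for Klrd1 under anti-PD-1, and the compared groups alone gave -0.010 for Klrk1 over both, -0.013 for Klrd1 under anti-PD-1 and 0.12 for Klra7 under the combination.

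Without 1 library, combination against anti-PD-1 ran from -0.19 to 0.07 for Klrg1. R against NR under anti-PD-1 ran from -0.852 to 0.49 for Klrb1c, -0.43 to 0.14 for Klrb1f, -0.58 to 0.49 for Klrd1, -0.39 to 0.82 for Klrk1 and -0.73 to 0.47 for Ncr1, and at equal T cell level from -0.14 to 0.33 for Klrb1c, -0.52 to 0.33 for Klrd1 and -0.59 to 0.24 for Ncr1. Under the combination it ran from -0.21 to 0.82 for Klrg1, and at equal T cell level from -0.19 to 0.18 for Klra7 and -0.14 to 0.18 for Klrb1f. Over both antibody treatments it ran from -0.18 to 0.35 for Klra7, -0.29 to 0.13 for Klrc1 and -0.021 to 0.58 for Ncr1, and at equal T cell level from -0.36 to 0.077 for Klrd1, -0.089 to 0.37 for Klrg1 and -0.076 to 0.12 for Klrk1. The groups of 4 tumours limit the R and NR comparisons, and low counts limit Klra7, Klre1 and Klrg1.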

Other observations

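Outside the 9 genes, the count table has further genes with a Klr symbol, 30 in all, of which 17 passed the filter on low counts. Klra2, which encodes the Ly49 receptor of myeloid cells known as Ly49B, had counts in all 49 libraries (median 179, highest 561). Klra17 (Ly49Q), a receptor of plasmacytoid dendritic cells and other myeloid cells, had counts in 48 (median 20, highest 148). Klra8 (Ly49H), the activating receptor for a cytomegalovirus protein in C57BL/6 mice, had a count in 11 libraries and never more than 2. Klra6, Klra11-ps and Klra14-ps had no count in any library.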
